A study of Homo sapiens with 11 samples.

Results

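SMARCA4 binding was mapped by chromatin immunoprecipitation and sequencing in 92-1 cells, a human uveal melanoma line, after 4 h of FHT-1015 or of its solvent DMSO. FHT-1015 inhibits the ATPases SMARCA4 (BRG1) and SMARCA2. The members are the SMARCA4 peaks in the authors' deposited lists, with 1 library in DMSO and 1 in FHT-1015, so nothing below has a replicate or a p-value. The narrow list numbered 101987 peaks for DMSO and 89761 for FHT-1015, the broad list 100927 and 91155. Together the narrow SMARCA4 lists made up 191748 of the 888435 narrow peaks that the series gave for 5 antibodies. The other 4 antibodies, also with 1 library per condition, recognised MITF, TFAP2A, SOX10 and acetylated histone H3 lysine 27 (H3K27ac). Peaks with the same chromosome, start and end were to be counted once, but neither SMARCA4 list held such repeats. DMSO peaks that overlapped a peak of the matching FHT-1015 list by 1 bp or more are called retained and the others lost, and FHT-1015 peaks with no DMSO peak over them are called FHT-1015-only. Percentages carry 95% Wilson intervals over peaks, which cover counting error in these lists and not the variation between cultures or immunoprecipitations.

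BAF complexes (SWI/SNF) use the energy of ATP to slide and eject nucleosomes, and SMARCA4 or SMARCA2 is their motor. They are brought to enhancers and promoters by transcription factors and by acetylated histones, where they keep the DNA accessible. In pigment cells MITF and SOX10 set the lineage program, and TFAP2A acts beside them in cells of neural crest origin. The peaks report where the antibody found SMARCA4, and not whether its ATPase was active there.

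As examples of the gene starts described below, the 250 bases before the start are printed for 4 genes. GPR158 and DNAJC6 had the largest rises of SMARCA4 within 1 kb of a start, and LCN10 and RAB7B the largest falls. All were ranked by the difference in summit reads over background and not by the ratio, among genes with such a peak in both libraries. The LCN10 peaks (chr9:136740651-136742543 in DMSO and chr9:136740761-136742341 in FHT-1015) lay within 1 kb of its start but not over it or the printed stretch. They were chosen after their values were seen, stand for no group, and come from RefSeq on GRCh38.p14 (GPR158, chr10:25174751-25175000, plus strand. DNAJC6, chr1:65309293-65309542, plus strand. LCN10, chr9:136742941-136743190, minus strand. RAB7B, chr1:205994458-205994707, minus strand). Each is written 5′ to 3′ on the gene's own strand, and capitals mark CG dinucleotides.
GPR158: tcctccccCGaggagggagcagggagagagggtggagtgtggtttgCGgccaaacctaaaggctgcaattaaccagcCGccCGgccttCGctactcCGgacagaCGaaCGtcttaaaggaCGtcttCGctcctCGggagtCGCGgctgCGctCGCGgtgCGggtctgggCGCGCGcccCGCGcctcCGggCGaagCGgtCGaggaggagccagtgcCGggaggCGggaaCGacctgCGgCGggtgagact
DNAJC6: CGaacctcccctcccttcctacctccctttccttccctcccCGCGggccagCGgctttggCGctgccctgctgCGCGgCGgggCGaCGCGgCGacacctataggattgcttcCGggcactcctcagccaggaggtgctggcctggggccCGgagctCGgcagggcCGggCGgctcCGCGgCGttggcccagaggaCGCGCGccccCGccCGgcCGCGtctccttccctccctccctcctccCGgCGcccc
LCN10: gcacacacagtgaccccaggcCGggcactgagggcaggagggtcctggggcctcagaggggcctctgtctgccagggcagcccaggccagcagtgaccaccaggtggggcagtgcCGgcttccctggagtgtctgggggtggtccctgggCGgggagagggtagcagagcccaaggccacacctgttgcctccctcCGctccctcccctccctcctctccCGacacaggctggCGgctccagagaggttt
RAB7B: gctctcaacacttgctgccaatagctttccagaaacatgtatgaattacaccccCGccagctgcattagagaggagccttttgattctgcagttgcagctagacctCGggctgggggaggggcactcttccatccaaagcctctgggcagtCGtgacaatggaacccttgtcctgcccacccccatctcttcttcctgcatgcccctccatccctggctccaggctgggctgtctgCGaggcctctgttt
The stretches before GPR158 and DNAJC6 hold 31 and 29 CG dinucleotides, and those before LCN10 and RAB7B hold 6 and 4, while their shares of G and C overlap (68.8%, 76%, 70% and 56.8%). Over the 22132 RefSeq starts used here the median for such a stretch was 16, with 2 at the 10th percentile and 33 at the 90th.

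The SMARCA4 libraries were of similar depth. Summit reads, recovered from the deposited fold and −log10 p of each peak, came out whole in 100% of peaks, with a median of 15 in DMSO and 14 in FHT-1015. The lowest background, 1.91 reads over a shortest peak of 192 bp in DMSO and 1.77 over 194 bp in FHT-1015, put the depth of the FHT-1015 library at 0.918 of the other. In 92-1 cells all 5 pigment cell markers with a start in the table (DCT, MITF, MLANA, TYR and TYRP1) had an H3K27ac peak there in DMSO. None of the 2 leukocyte, 1 epithelial, 1 endothelial, 1 hepatocyte and 2 neuronal markers with a start had one. With 1 library a side, a difference in the yield of an immunoprecipitation that was common to all sites cannot be told apart from a difference in binding.

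A larger share of SMARCA4 peaks lay at the ends of genes in FHT-1015 than in DMSO, and the difference was far larger among strong peaks than over the whole list. Peaks were placed in 3 classes: boundary, within 1 kb of either end of 1 of 19974 protein-coding genes on chromosomes 1 to 22 and X; gene body, over such a gene but at no boundary; and intergenic. In the whole narrow list, the boundary class went from 18220 of 101954 peaks in DMSO (17.9%, 17.6 to 18.1) to 19385 of 89693 in FHT-1015 (21.6%, 21.3 to 21.9). Gene bodies held 45.7% and 43.9%, and intergenic sequence 36.5% and 34.5%. Among strong peaks, those with a −log10 p of 10 or more, boundary peaks numbered 4196 of 19262 in DMSO (21.8%, 21.2 to 22.4) and 8160 of 18313 in FHT-1015 (44.6%, 43.8 to 45.3). Strong gene body peaks numbered 8020 and 5966, and strong intergenic peaks 7046 and 4187. FHT-1015 therefore had 1.94 times as many strong boundary peaks as DMSO, 0.744 times as many strong gene body peaks and 0.594 times as many strong intergenic peaks.

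Over the whole list, boundary peaks were also wider in FHT-1015. Their median width was 410 bp in DMSO and 562 bp in FHT-1015, while that of gene body peaks was 309 and 296 bp and that of intergenic peaks 307 and 275 bp. Among strong peaks the classes did not differ in this way, with a median width in FHT-1015 of 1.34 times that in DMSO at boundaries, 1.35 times in gene bodies and 1.28 times between genes. Boundary peaks covered 10.0 Mb in DMSO and 14.8 Mb in FHT-1015, with intergenic peaks covering 15.3 and 12.6 Mb. The bases covered by the whole list were nearly equal, at 44.8 and 44.9 Mb. Over the whole broad lists the boundary share differed less, 15.4% in DMSO and 17.3% in FHT-1015. They held 116 strong boundary peaks of 1872 strong peaks in DMSO (6.20%, 5.19 to 7.38) and 1409 of 2950 in FHT-1015 (47.8%, 46.0 to 49.6), against 838 and 836 strong gene body peaks and 918 and 705 strong intergenic ones.

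**Figure D1:**
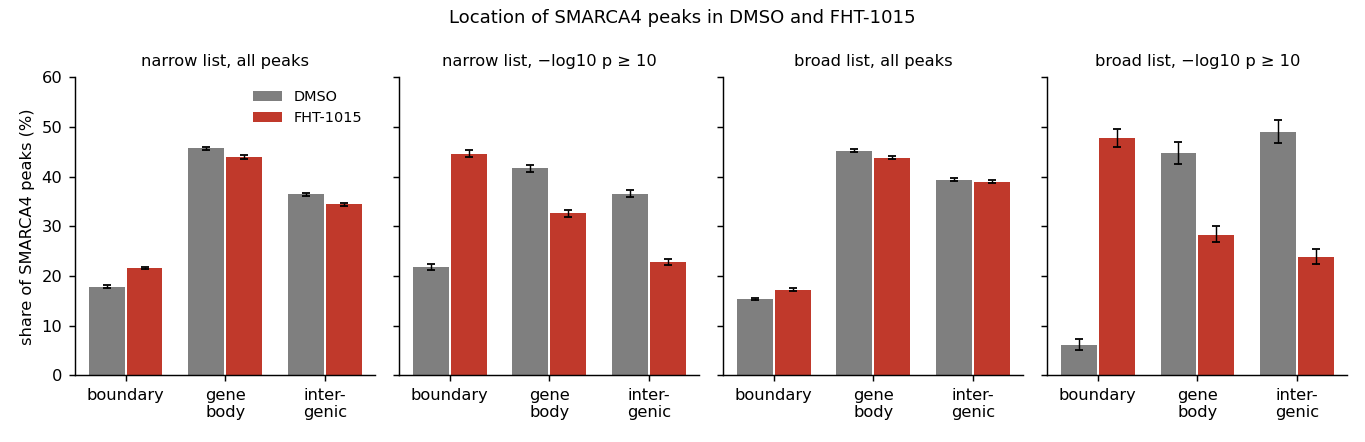
Share of SMARCA4 peaks (percent, with 95% Wilson intervals) at gene boundaries, in gene bodies and between genes, for narrow and broad lists and for all peaks or those with a −log10 p of 10 or more. The boundary share is 21.8% in DMSO and 44.6% in FHT-1015 among strong narrow peaks, and 6.20% and 47.8% among strong broad peaks.

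The very top of each list differed too. Of the 100 strongest DMSO peaks 5 lay at a boundary and 59 between genes, and of the 100 strongest FHT-1015 peaks 36 lay at a boundary and 39 between genes. Among the 1000 strongest the boundary class held 59 peaks in DMSO and 385 in FHT-1015. Nearly all of these top peaks were in both lists, since 97.5% of the 1000 strongest in DMSO and 99.6% of those in FHT-1015 had a partner peak. What differed at the top of the list was thus the rank of shared sites.

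Gene starts, rather than ends, held most of the boundary peaks. RefSeq gave 22132 starts for 15812 protein-coding genes, none of them on chromosome 8, which is left out wherever starts are used. Of the boundary peaks on the other chromosomes, 74.4% in DMSO and 75.5% in FHT-1015 lay within 1 kb of a start. Peaks directly over a start numbered 4082 in DMSO and 5971 in FHT-1015, a ratio of 1.46, and the strong ones among them 1427 and 3934, a ratio of 2.76. Their median width was 617.5 bp in DMSO and 1027 bp in FHT-1015. The ratio of strong peaks declined with distance from a start: it was 1.60 from 1 bp to 1 kb, 0.834 from 1 to 5 kb, 0.781 from 5 to 10 kb, 0.728 from 10 to 50 kb, 0.713 from 50 to 100 kb and 0.616 beyond 100 kb. Over all peaks the ratio was already below 1 from 1 bp to 1 kb, at 0.925 (11966 and 11065), and was 0.809 beyond 100 kb. Beyond 100 kb there were 5828 strong peaks in DMSO and 3588 in FHT-1015.

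SMARCA4 summits lay mainly downstream of the start in both conditions. In the 200 bp after the start there were 518 strong summits in DMSO and 1383 in FHT-1015, and in the 200 bp before it 296 and 610. From 800 to 1000 bp downstream the numbers were 286 and 411, from 1000 to 1200 bp 142 and 229, from 1200 to 1400 bp 95 and 143, from 1600 to 1800 bp 62 and 61, and from 2000 to 2200 bp 43 and 41. The surplus of strong summits in FHT-1015 thus reached past 1 kb downstream.

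**Figure D2:**
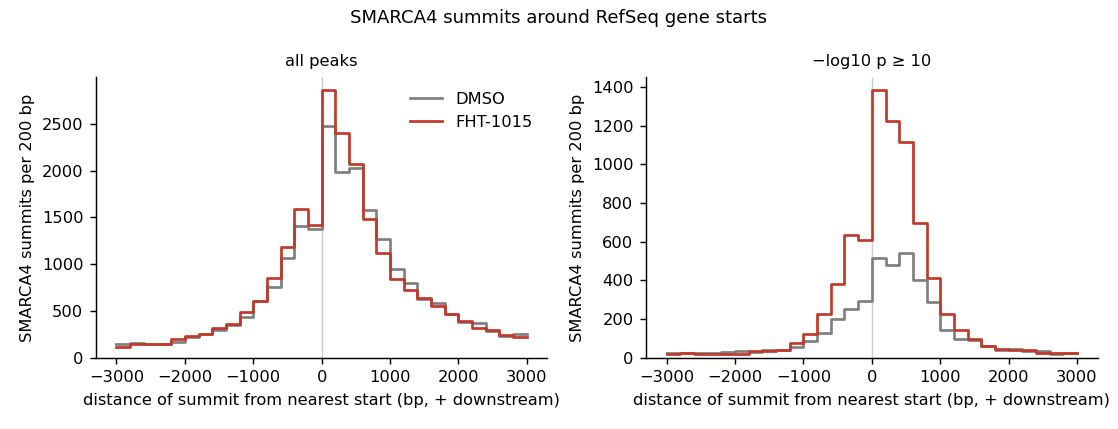
Number of SMARCA4 summits per 200 bp by distance in bp from the nearest RefSeq start (positive is downstream), for all peaks and for peaks with a −log10 p of 10 or more. The strong summits in the first 200 bp downstream number 518 in DMSO and 1383 in FHT-1015, and the curves meet by 2000 bp.

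The same measure was taken for the other antibodies. The boundary share of strong peaks was higher in FHT-1015 for all of them. In DMSO and FHT-1015, MITF had 14.6% and 29.7%, TFAP2A 18.98% and 31.7%, SOX10 21.8% and 30.4%, and H3K27ac 36.1% and 43.6%. A higher boundary share was thus not particular to SMARCA4. The number of strong peaks within 1 kb of a start did not move together, however. It went from 3583 to 7389 for SMARCA4, a ratio of 2.06, against 0.995 for TFAP2A (10389 and 10337), 0.967 for H3K27ac (10355 and 10009), 0.862 for MITF (4071 and 3511) and 0.167 for SOX10 (7489 and 1249). Among strong start peaks the ratio of SMARCA4 was the only one of the 5 above 1. Over all start peaks it was 1.06, against 1.01 for TFAP2A. Strong peaks at any location numbered 19262 and 18313 for SMARCA4, 32819 and 13428 for MITF, and 66819 and 40105 for TFAP2A. As a share of each strong list, start peaks went from 20.0% to 42.8% for SMARCA4 and from 13.2% to 27.7% for MITF. For TFAP2A the shares were 16.5% and 27.3%, for SOX10 19.9% and 28.4%, and for H3K27ac 33.7% and 40.9%. A higher start share was thus not particular to SMARCA4. These libraries differ in depth and antibody, and no test of the difference between antibodies was possible.

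Over the whole narrow list, 48% of DMSO peaks were lost and 45.4% of FHT-1015 peaks were FHT-1015-only. In the broad lists the shares were 49.9% and 47%. Boundary peaks were retained in 85.0% of cases (84.5 to 85.5), gene body peaks in 48.2% (47.8 to 48.7) and intergenic peaks in 40.5% (40.0 to 41.0). In the boundary class 2733 peaks were lost and 5773 were FHT-1015-only, whereas gene bodies lost 24106 and had 18917 FHT-1015-only peaks, and intergenic sequence lost 22115 and had 16034. Lost peaks thus outnumbered FHT-1015-only peaks away from boundaries, and the reverse held at boundaries.

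Retention rose with strength in every class, by fewer percentage points at boundaries than elsewhere and from a higher start. In the weakest of 10 equal parts of the DMSO list by −log10 p, 67.8% of boundary, 25.9% of gene body and 18.6% of intergenic peaks were retained. In the strongest part the shares were 98.2%, 88.9% and 86.3%. Boundary peaks had less room to rise, so their smaller rise does not show a weaker dependence on strength. Seen from the FHT-1015 list, 70.2% of boundary, 52.0% of gene body and 48.1% of intergenic peaks had a DMSO partner. Within its parts the classes lay closer together than in the DMSO list, with 29.6%, 26.3% and 21.8% in the weakest. The shares were 38.6%, 31.8% and 28.7% in the fourth part. From the seventh part up the order was reversed, and boundary peaks were the least often shared. The shares were 60.7%, 65.5% and 66.6% in the seventh, 90.9%, 93.8% and 94.3% in the ninth and 97.8%, 98.7% and 99.2% in the strongest. Boundary peaks made up 9.58% of the weakest part and 46.96% of the strongest.

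**Figure D3:**
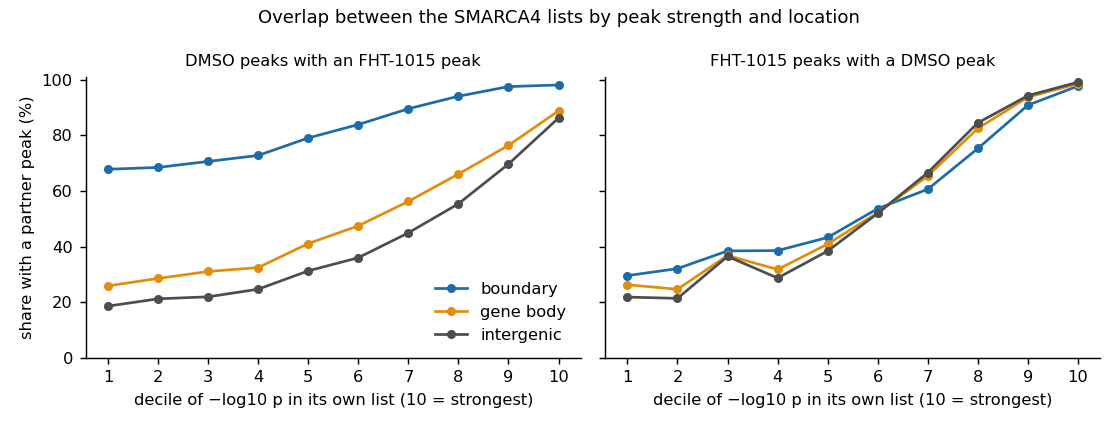
Share of SMARCA4 peaks (percent) with a partner in the other list, by decile of −log10 p within the peak's own list and by location. DMSO boundary peaks run from 67.8% to 98.2% and intergenic ones from 18.6% to 86.3%, while the 3 curves of the FHT-1015 list lie closer to each other.

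Strong lost peaks and strong FHT-1015-only peaks differed in their surroundings. There were 2853 strong lost peaks, of which 87 lay at a boundary, and 861 strong FHT-1015-only peaks, of which 470 did. The strong lost peaks lay a median of 9366 bp from the nearest FHT-1015 peak, and 1377 of them (48.3%) lay more than 10 kb away. The strong FHT-1015-only peaks lay a median of 615 bp from the nearest DMSO peak, and 56.9% of them lay within 1 kb of one. Most strong FHT-1015-only peaks therefore sat beside a site that was already occupied in DMSO, and 215 of them were more than 10 kb from any DMSO peak.

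The strongest lost peaks lay away from boundaries and had all 3 lineage factors and H3K27ac over them in DMSO. Acetylation and a place away from boundaries were common to strong DMSO peaks and did not set the lost ones apart. Of the 1000 strongest DMSO peaks, 93.4% had H3K27ac, 5.9% lay at a boundary and 97.5% were retained. The strongest lost peak was a gene body peak at chr19:35106752-35108165 (GRCh38), inside the annotated gene LOC124904701 and 9835 bp from the start of FXYD3. Its −log10 p of 77.2 ranked 48th in the DMSO list, its summit held 102 reads, the nearest FHT-1015 peak lay 7394 bp away, and MITF, TFAP2A, SOX10 and H3K27ac peaks were over it in DMSO and none of them in FHT-1015. The next gene body peaks lay in ADGRG1, an adhesion G-protein-coupled receptor (chr16:57623250-57624665, 102 reads), in SDK2, a cell adhesion protein (chr17:73630132-73631429, 81 reads), and in EXTL1, a glycosyltransferase (chr1:26028125-26029115, 78 reads). H3K27ac and SOX10 peaks over these 3 sites were present in DMSO and absent in FHT-1015. The strongest lost intergenic peaks lay at chr16:35516349-35517357 (88 reads), at chr14:36426603-36427280 (62 reads), 89117 bp from the homeobox gene NKX2-1, and at chr11:1826847-1827815 (72 reads), 3969 bp from SYT8, a synaptotagmin. The fourth, at chr15:21270279-21270916, had 134 reads over a background of 27.1. The NKX2-1 site kept its MITF and TFAP2A peaks, and the SYT8 site kept no peak of the other antibodies.

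At boundaries the strongest lost peaks were weaker. They lay over the start of SMIM40 (chr6:33328694-33329391, 68 reads), at the end of PSMG1, which helps assemble the proteasome (chr21:39174057-39174908, 52 reads), 768 bp from TUBA3C, an alpha-tubulin gene (chr13:19172370-19173004, 36 reads), and at RAB3IL1, an exchange factor for Rab GTPases (chr11:61896876-61897868, 56 reads). SMIM40 lost the peaks of all 4 other antibodies, while PSMG1 and RAB3IL1 kept H3K27ac. SOX10 peaks over all 4 sites were present in DMSO alone.

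The strongest FHT-1015-only peaks were at boundaries. The first lay 10 bp from the start of DTX2, a ubiquitin ligase of Notch signalling (chr7:76461719-76462076, −log10 p of 53.8, 61 reads), the second over the start of PSD, an exchange factor for the GTPase ARF6 (chr10:102418899-102420571, 84 reads), the third 207 bp from EFEMP2, an elastic fibre protein (chr11:65873007-65873964, 83 reads), and the fourth over a start of GLIS1, a zinc finger factor (chr1:53738649-53739153, 46 reads). The EFEMP2 peak was 11450 bp from any DMSO peak, and the GLIS1 peak 302 bp. DTX2, PSD and EFEMP2 had H3K27ac in both conditions, and GLIS1 had none. Among the gene body peaks, those in TC2N (53 reads) and SLC37A1 (44 reads), a sugar phosphate transporter, lay 0 and 170 bp from annotated starts inside the gene, and neither had H3K27ac. Another lay in ADGRE5 (37 reads), which encodes CD97, 1124 bp from a DMSO peak. The strongest intergenic one, at chr1:58816050-58817323 with 50 reads, lay 32003 bp from JUN, a subunit of AP-1, and only 96 bp from a DMSO peak. The remaining intergenic peaks were 369 bp (185458 bp from FANCL), 28258 bp (42793 bp from RXFP2) and 242 bp (21830 bp from CFAP126) from the nearest DMSO peak.

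Peaks present in both lists were compared by their summit reads divided by the lowest background of their library. This measure was available for 44959 peaks that were each other's highest partner. Over all of these pairs 18.9% were higher by 1.5 times or more in FHT-1015 and 11.5% were lower by as much, with a median log2 ratio of 0.11. Boundary pairs (12569) had a median log2 ratio of 0.43 (quartiles 0.11 and 0.76), with 37.2% higher and 1.96% lower. Gene body pairs (18782) had a median of 0.01, with 13.4% higher and 12.9% lower. Intergenic pairs (13608) had a median of -0.08, with 9.57% higher and 18.3% lower. Median summit reads at boundary pairs were 21 in DMSO and 26 in FHT-1015, and at intergenic pairs 21 and 18.

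Pairs within 1 kb of a listed start had a median log2 ratio of 0.45, and the other boundary pairs one of 0.34. The latter can include starts as well as ends of genes, since 82.1% of protein-coding genes off chromosome 8 had a listed start. Pairs whose mean exceeded 30 reads, which carry less counting error, differed more by location, with a median of 0.62 at boundaries (53.7% higher, 1.55% lower) and of -0.05 between genes (14.5% higher, 23.96% lower). The median boundary peak was 1.40 times as wide in FHT-1015 as its DMSO partner, against 1.05 times in gene bodies and 0.969 times between genes.

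**Figure D4:**
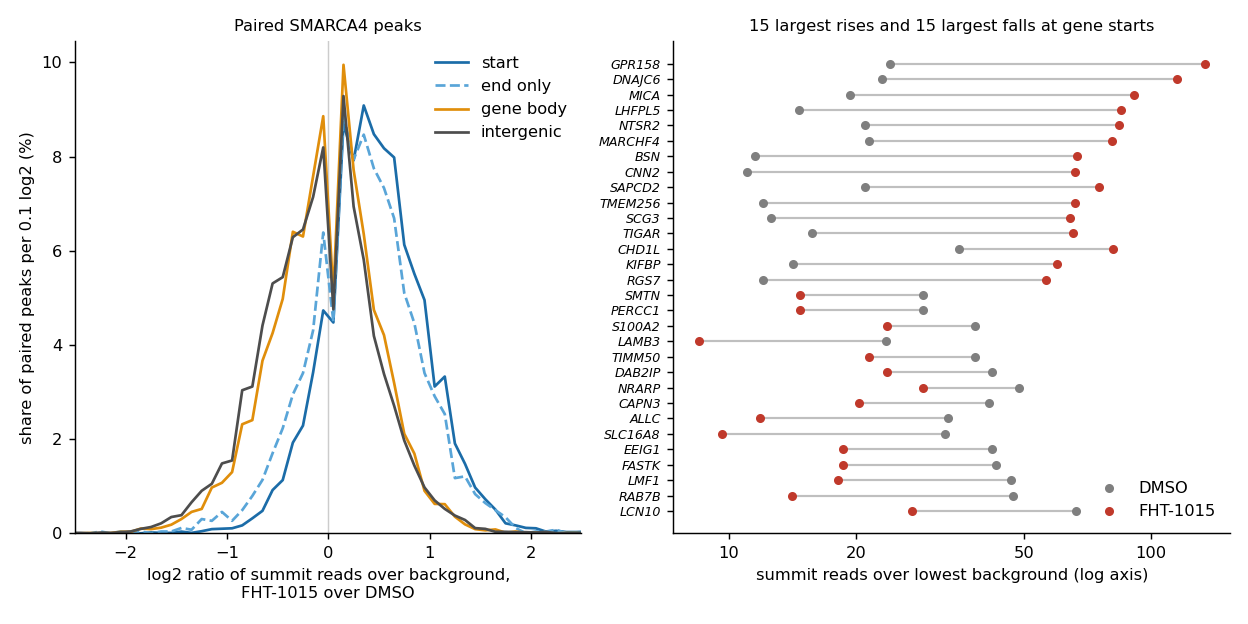
Left, distribution of the log2 ratio of SMARCA4 summit reads over background (FHT-1015 over DMSO) for paired peaks at listed starts, at other boundaries, in gene bodies and between genes. The curve labelled end only holds boundary pairs with no listed start within 1 kb, which can include unlisted starts. The dips near 0 come from ratios of small whole numbers. Right, summit reads over background (log axis) in each library for the 15 genes with the largest rise and the 15 with the largest fall within 1 kb of a start (by the difference, not the ratio), where GPR158 runs from 24.1 to 134.6 and LCN10 from 66.6 to 27.1. At EEIG1, LMF1, NRARP and SMTN the peaks of the 2 libraries did not overlap.

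Gene by gene, the highest SMARCA4 summit within 1 kb of any start was taken from each library. Of 15812 genes, 9090 had such a peak in both, 1305 in FHT-1015 alone, 433 in DMSO alone and 4984 in neither. Of the 9090, 44.4% were higher by 1.5 times or more in FHT-1015 (4033 genes) and 1.32% lower (120 genes), and the median log2 ratio was 0.52. The remaining 4937 of these genes were within 1.5 times. Rises of that size were therefore far more frequent than falls, though fewer than the genes within 1.5 times. The 2 summits of a gene can belong to different sites. Single genes are named below, after their values were seen, to show the extremes. The intervals on their ratios are exact binomial ones on the 2 read numbers.

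GPR158, an orphan G-protein-coupled receptor known from neurons, had 46 summit reads in DMSO and 238 in FHT-1015, which is 24.1 and 134.6 times the lowest background and a ratio of 5.58 (4.05 to 7.83). Its peak spanned chr10:25174319-25175438 in DMSO and chr10:25173228-25176331 in FHT-1015. DNAJC6, the neuronal auxilin that strips clathrin from vesicles, had 44 and 204 reads, a ratio of 5.00 (3.59 to 7.09). These were the 2 largest differences in reads over background, though not the largest ratios, and both starts are printed above.

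LHFPL5, a tetraspan protein of hair cell mechanotransduction, went from 28 to 150 reads, a ratio of 5.78 (3.84 to 8.98). NTSR2, a neurotensin receptor, had 40 and 149 reads. MARCHF4, a membrane ubiquitin ligase, had 41 and 143. SCG3, a secretory granule protein, had 24 and 114, and RGS7, a regulator of G-protein signalling, had 23 and 100. All of these, with GPR158 and DNAJC6, had no H3K27ac peak within 1 kb of a start in either condition. Each had a TFAP2A and a SOX10 peak there in DMSO, as most occupied boundaries did. Of all retained boundary peaks, 80.7% had a TFAP2A peak and 75.4% a SOX10 peak over them in DMSO.

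Other large rises came at acetylated starts. MICA, a ligand of the natural killer receptor NKG2D, had 37 reads in DMSO and 161 in FHT-1015, and CNN2, a calponin that binds actin, 21 and 117, the latter a ratio of 6.01 (3.75 to 10.1). TIGAR, a phosphatase that lowers glycolytic flux, had 30 and 116 reads, and KIFBP, a kinesin-binding protein, 27 and 106. CHD1L, itself an ATP-dependent remodeller, had 67 and 144. These starts carried H3K27ac in both conditions. BSN, a scaffold of the presynaptic active zone, had 22 and 118 reads and an H3K27ac peak in DMSO alone.

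The largest falls, also by difference, were smaller. LCN10, a lipocalin, had 127 reads in DMSO and 48 in FHT-1015, a ratio of 0.407 (0.286 to 0.572), with H3K27ac in both. RAB7B, a small GTPase of late endosomes, had 90 and 25 reads, a ratio of 0.299 (0.184 to 0.471). SLC16A8, the lactate transporter of the retinal pigment epithelium, had 62 and 17 (ratio 0.296, 0.162 to 0.512), and ALLC 63 and 21. At RAB7B, SLC16A8 and ALLC the H3K27ac peak was present in DMSO alone. CAPN3, a calpain, had 79 and 36 reads, and LAMB3, a laminin chain, 45 and 15. SOX10 peaks lay at the starts of all 6 genes in DMSO, and of these only LCN10 had one in FHT-1015. This did not set falls apart from rises. Every rise named above also had a SOX10 peak in DMSO, and only GPR158, DNAJC6, RGS7, CNN2 and CHD1L had one in FHT-1015. The falls of FASTK, NRARP and TIMM50, not among the 6, kept theirs. LMF1, FASTK and EEIG1 had larger differences than SLC16A8, with H3K27ac in both conditions. The whole SOX10 narrow list went from 103379 peaks in DMSO to 33268 in FHT-1015.

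Higher start signals were found with and without acetylation. Of genes with a start peak in both libraries, 42.9% of those with H3K27ac in both conditions were higher by 1.5 times or more (median log2 ratio 0.50, 7928 genes), and 56.3% of those with H3K27ac in neither (median 0.69, 868 genes). The 139 genes with H3K27ac in DMSO alone had the highest share of falls, 12.9%, against 1.05% of genes with H3K27ac in both.

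The RefSeq windows from 250 bases before to 50 after each start were then scored for a SMARCA4 peak. Of 22132 windows, 6708 had a peak in both conditions, 15.1% (3331 windows of 2988 genes) in FHT-1015 alone, 3.7% (819 windows of 767 genes) in DMSO alone and 11274 in neither. Windows occupied in FHT-1015 alone held a mean of 26.5 CG dinucleotides, those in both 28.0, those in DMSO alone 21.7 and those in neither 14.4. H3K27ac covered 71.5% of the windows occupied in FHT-1015 alone in DMSO and 75.1% in FHT-1015. For windows occupied in DMSO alone the shares were 71.6% and 68.4%. A window occupied in FHT-1015 alone need not be a new site, because a wider peak can reach it from nearby. Peaks over a start had a median width of 617.5 bp in DMSO and 1027 bp in FHT-1015. By genes, 1305 had a peak within 1 kb of a start in FHT-1015 alone, fewer than the 2988 counted by windows.

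Strong SMARCA4 peaks were more frequent in FHT-1015 at every level of CG content, with the largest gain in percentage points at CG-rich starts. Windows were split into 5 equal groups by their number of CG dinucleotides. Among windows without H3K27ac in DMSO, a strong peak covered 0.204% in DMSO and 0.408% in FHT-1015 in the group with the fewest CG (0 to 5), and 7.37% and 31.6% in the group with the most (34 to 69). Among windows with H3K27ac the shares were 26.7% and 34.1% in the first group and 27.1% and 58.2% in the last. Over all windows without H3K27ac, 245 had a strong peak in DMSO and 1023 in FHT-1015, and over all with H3K27ac 2173 and 5114. Starts of 1 gene can overlap and share a peak, so windows are not independent of each other.

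**Figure D5:**
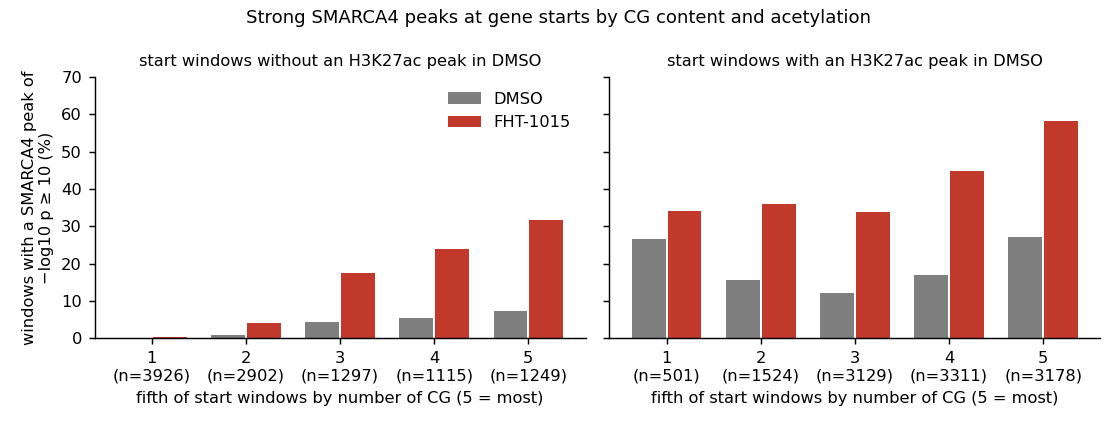
Share of RefSeq start windows (percent) covered by a SMARCA4 peak with a −log10 p of 10 or more, by group of CG content (1 has the fewest, 5 the most) and by presence of an H3K27ac peak in DMSO. The FHT-1015 bar is above the DMSO bar in all 10 pairs, and in the CG-richest group it reaches 31.6% without and 58.2% with H3K27ac.

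Letters known from the sites of the studied factors were counted in the same windows, on both strands. CACGTG, the E-box bound by MITF, stood in 8.83% of windows occupied in FHT-1015 alone, 9.16% of those in DMSO alone, 11.2% of those in both and 8.34% of all windows. GCCNNNGGC, an AP-2 site, stood in 33.6%, 29.2%, 37.2% and 27.4%. TGANTCA, the AP-1 site, stood in 4.05%, 7.20%, 4.68% and 6.15%. ACAAAG, a SOX core, stood in 10.3%, 13.7%, 10.0% and 13.6%. The AT-richer AP-1 and SOX letters were thus less frequent, and the GC-rich AP-2 letters more frequent, in windows of FHT-1015 alone than in those of DMSO alone. The base composition of the windows differed in the same direction, with a mean of 65.4% G or C in the former and 61.7% in the latter, and its part in these shares was not tested.

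Lineage factors in DMSO went along with retention. Of SMARCA4 peaks with a DMSO peak of MITF, TFAP2A or SOX10 over them, 62.2% (61.8 to 62.5) were retained, and of those with none 26.95% (26.4 to 27.5). Intergenic SMARCA4 peaks were retained in 17.2% of cases with no factor, 31.0% with 1, 43.4% with 2 and 67.3% with all 3, and gene body peaks in 27.9%, 43.6%, 53.9% and 73.3%. Boundary peaks with no factor were still retained in 62.3% (60.5 to 64.2), and those with all 3 in 93.1%. The strength of the SMARCA4 peaks went the same way, with a median −log10 p of 3.96 for intergenic peaks with no factor and 10.0 with 3. Matched on strength, the difference between peaks with and without a factor was 19.4 percentage points instead of 35.2. When every list was limited to a −log10 p of 10 or more, the difference was reversed, -7.43 points, with 53.8% of 18229 SMARCA4 peaks with a factor and 61.2% of 1033 without one retained. Of those 1033 peaks 457 were boundary peaks. Within classes, the strong peaks with and without a factor were retained in 85.2% and 86.0% of cases at boundaries, 48.7% and 49.9% in gene bodies, and 42.2% and 26.6% between genes.

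Acetylation at the same site followed SMARCA4 closely away from boundaries. Intergenic SMARCA4 peaks with H3K27ac in both conditions were retained in 78.2% of cases (77.4 to 79.0), those with H3K27ac in DMSO alone in 38.5% (37.2 to 39.7) and those with none in 18.05% (17.5 to 18.6). Among gene body peaks the shares were 79.6%, 40.2% and 22.1%. Boundary peaks with no H3K27ac in either condition were retained in 65.8% (64.2 to 67.4). H3K27ac and factor number went with retention within groups of the other. Among peaks outside boundaries without H3K27ac in DMSO, 13.6% were retained with no factor and 38.1% with 3, and among those with H3K27ac 45.3% and 80.2%. Peak strength was not held in these groups, and the median −log10 p went from 3.85 to 7.03 without H3K27ac and from 4.42 to 11.3 with it.

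The factors and the mark were in turn less often kept where SMARCA4 was lost. These kept shares were not matched on the strength of the SMARCA4 peaks, and weaker SMARCA4 peaks were more often lost. Of intergenic sites that kept SMARCA4, 79.0% of those with H3K27ac in DMSO also kept H3K27ac, against 39.6% of those that lost SMARCA4. For TFAP2A the shares were 67.5% and 38.0%, for MITF 56.2% and 23.1%, and for SOX10 29.0% and 3.77%. At boundaries the sites that kept SMARCA4 kept TFAP2A in 93.0% and SOX10 in 48.9% of cases, and those that lost it in 75.99% and 28.7%. The FHT-1015-only boundary peaks were mostly not new factor sites: 58.8% of them had 1 or more lineage factors over them in DMSO already, and 7.34% gained a first one in FHT-1015.

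Peaks were counted over whole gene loci, taken as the gene with 10 kb on either side. Of 3377 loci with at least 8 DMSO peaks, 12.2% (411) had their number cut to 0.5 times or less and 0.148% (5) had 2 times as many or more. Choosing loci by their DMSO number favours the first of these: among 3026 loci with at least 8 FHT-1015 peaks, 53 had 0.5 times or less and 218 had 2 times or more. Among 4048 loci with at least 8 peaks in either list the numbers were 411 and 218. The median locus of the 3377 had 0.80 times as many peaks in FHT-1015 and retained 58.3% of its DMSO peaks. PDGFRB, a platelet-derived growth factor receptor, had 12 peaks in DMSO and 5 in FHT-1015, with 1 of the 12 retained. EXOC4, an exocyst subunit with a long gene (848 kb), had 15 and 4, with 1 retained. TRIQK had 9 and 2, and SLC17A1, a phosphate transporter, 8 and 1, and neither retained a DMSO peak. The collagen genes COL8A1 (10 and 2), COL14A1 (10 and 4) and COL16A1 (9 and 3), EXT2 (10 and 2), which polymerises heparan sulfate, the ubiquitin ligase gene ZNRF1 (10 and 2) and the metalloprotease gene ADAM19 (9 and 3) each kept 1 DMSO peak. At the other end, SYNPR, a synaptic vesicle protein, had 12 peaks in DMSO and 30 in FHT-1015, the calcium channel gene CACNA1H 8 and 19, CROCC, a protein of the ciliary rootlet, 8 and 19, COL4A2, a basement membrane collagen, 9 and 18, and GPSM1 8 and 16. They were followed by PTPRN2 (10 and 19), the DNA repair gene ERCC1 (9 and 17), AGAP3 (8 and 15), PDGFB, which encodes a ligand of PDGFRB (8 and 15), and PKIG, a protein kinase A inhibitor (8 and 15).

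The 8 gene lists, chosen with earlier results known, describe loci of interest in these cells. In the pigment lineage list, 1 of 11 genes with a start peak in both libraries was higher by 1.5 times or more and 1 lower, against 44.4% and 1.32% of all genes, and the median log2 ratio was 0.20 against 0.52. DCT, an enzyme of melanin synthesis, had 36 summit reads in DMSO and 16 in FHT-1015 (ratio 0.479, 0.248 to 0.886). OCA2, a melanosome transporter, had 19 and 32 (ratio 1.82, 0.998 to 3.39). MITF had 29 and 35 reads, TYR, the first enzyme of melanin synthesis, 30 and 24, PAX3, a factor upstream of MITF, 22 and 20, and TRPM1 61 and 65, all within 1.5 times. The MITF locus had 78 SMARCA4 peaks in DMSO and 67 in FHT-1015, with 44 of the 78 retained, and EDNRB, the endothelin receptor of melanoblasts, 25 and 16. MLANA, a melanosome antigen, had 5 and 10.

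Among genes of the BAF complexes themselves, 7 of 19 with a start peak in both were higher by 1.5 times or more and none lower, with a median log2 ratio of 0.37. SMARCA2, the alternative ATPase that FHT-1015 also inhibits, had 16 summit reads in DMSO and 45 in FHT-1015, a ratio of 3.03 (1.68 to 5.75). SMARCA4 had 21 and 21, ARID1A, the subunit that marks canonical BAF, 19 and 19, and PBRM1, a subunit of the PBAF form, 21 and 13 (ratio 0.667, 0.307 to 1.40). The ARID1B locus held 86 peaks in DMSO and 80 in FHT-1015.

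The other lists fell on both sides of the median of all genes. In the AP-1 list 3 of 8 start peaks were higher, among them FOSL2 (31 and 50 reads) and ATF3 (27 and 42), while JUN had 28 and 36. In the MAP kinase feedback list 4 of 8 were higher, with SPRED2, an inhibitor of RAS signalling, at 21 and 36 reads and the phosphatase DUSP6 at 39 and 54. In the YAP and TEAD list 4 of 7 were higher, with the kinase LATS2 at 44 and 84 (ratio 2.06, 1.41 to 3.04), AMOTL2 at 30 and 56 and CCN2, a secreted YAP target, at 45 and 42. In the neural crest list 4 of 5 were higher, with MSX2 at 32 and 53 and TFAP2A at 29 and 44, while FOXD3 had 32 and 28. In the G alpha q list 4 of 6 were higher, with PRKCE, a protein kinase C, at 37 and 57. None of the 7 control genes was higher by 1.5 times or lower by as much, with a median log2 ratio of 0.35. These lists are small, and their counts are a description that sets no list apart from the 44.4% of all genes.

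Peaks were also counted over the whole loci of these lists. The G alpha q loci, of the pathway that is mutated in most uveal melanomas, retained 50% of 198 DMSO peaks and had 151 in FHT-1015. They did not all go the same way. GNAQ had 33 and 20, PLCB4, a phospholipase C, 40 and 22, PRKCE 49 and 37, TRIO 34 and 23, and RASGRP3 25 and 23. PRKCD had 11 and 11, while GNA11 had 2 and 8, CYSLTR2 1 and 3, and ARF6 3 and 4. The AP-1 loci retained 81.0% of 63, the MAP kinase feedback loci 73.3% of 105, the pigment loci 68.8% of 272, the neural crest loci 66.9% of 127, the BAF loci 64.2% of 218 and the YAP and TEAD loci 62.2% of 143. The control loci retained 75.9% of 54, and the 71395 DMSO peaks in any protein-coding locus were retained in 57.2% of cases.

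By chromosome, the number of SMARCA4 peaks in FHT-1015 was below that in DMSO everywhere except chromosome 19, where it went from 2760 to 3149, a ratio of 1.14. Chromosome 19 had 1451 protein-coding genes and the highest boundary share in DMSO, 36.6%. The lowest ratio was that of chromosome 8, 0.754 (5820 and 4390 peaks), where 12.7% of DMSO peaks lay at a boundary.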

How the data were processed

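Peak lists of SMARCA4 and of 4 other antibodies in 92-1 cells were used as the authors deposited them, 1 library per list and none pooled. Per the submitters' processing notes, BWA, SAMtools, Picard and MACS2 were used with build hg38. Their settings and control are not given in the sources used here. The only input library of the series came from DMSO cells, so the series has no input from FHT-1015 cells. The deposited lists give for each peak a fold over the caller's background (a ratio), a −log10 p and −log10 q, a summit offset in bp and a score by the authors, which was not used. The authors' fold and −log10 values were used only to rank and filter peaks and to recover summit reads x and background λ from fold = (x + 1)/(λ + 1) and the Poisson tail, within 0.002 in −log10 p. Only chromosomes 1 to 22 and X were used. Genes and starts came from RefSeq (GRCh38.p14), where 82.1% of protein-coding genes off chromosome 8 had a start, and exons and introns were not analysed here.

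From these values, overlaps of at least 1 bp, location classes, deciles of −log10 p and ratios of summit reads over the lowest background were computed with Python 3.11.15, numpy 2.4.6, pandas 2.3.3 and scipy 1.17.1, after tests on simulated data. Matched differences were averaged over deciles with at least 20 peaks of each class. The named peaks are the 4 lost and 4 FHT-1015-only narrow peaks with the highest −log10 p in each location class, of which 1 is not reported here. The named loci are the 10 with the lowest retained share and the 10 with the highest FHT-1015 over DMSO number among those with at least 8 DMSO peaks, and 8 gene lists with 105 entries were described by counts. The members and lists were chosen with earlier results of these data known. No test was made, as each side had 1 library.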

Additional observations from a re-analysis of the deposited data

How the results depend on the processing

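Of 61 alternative values, 11 stayed within the counting interval (or, for the paired ratio, the quartiles) of the value reported, 48 moved outside it in the same direction and 2 were reversed, and the cause was not tested. The number ratio (0.880) was reversed to 1.097 with a fold of at least 5, and was 0.951 with a −log10 p of 10 or more, 0.829 with q under 0.05 and 0.903 in the broad lists. The retained share (52.0%) was 54.2%, 47.1%, 52.5% and 50.1% in the lists with −log10 p of at least 10, fold of at least 5, q under 0.05 and broad, 55.3% with lists of equal number, 44.2% with 50% of the peak covered and 36.0% with summits within 200 bp. The FHT-1015-only share (45.4%) was 44.8%, 57.8%, 41.6%, 47.0%, 48.2%, 55.8% and 59.1% in the same order. Gene body minus boundary retention (-36.8 points) was -37.8 with fold, -39.6 in broad lists, -35.1 with equal number, -39.6 with 50% covered, -19.3 by summits, -32.1 with a 2.5 kb boundary, -32.2 with all RefSeq genes and -31.9 matched on strength. Intergenic minus boundary (-44.5) was -43.6 with −log10 p of at least 10, -45.7 with fold, -42.8 with equal number, -47.1 with 50% covered, -21.8 by summits, -38.0 with 2.5 kb, -39.4 with all genes and -40.3 matched. The boundary share difference (3.74 points) was 22.8, 25.5, 5.86, 1.84 and 3.04 with −log10 p, fold, q, broad and equal number, 4.38 with 2.5 kb and 10.7 as a share of covered bases. The factor difference (35.2) was 19.4 matched, 31.5 outside boundaries, 14.96 with both (added after seeing the data), and reversed to -7.43 among strong peaks. Loci with 0.5 times the peaks or less (411 of 3377, with 5 at 2 times or more) numbered 702 of 13699 with 100 kb (0.737% at 2 times or more) and 35 of 158 in strong lists, and 411 of 4048 when chosen by either list (218 at 2 times or more, added after seeing the data). The boundary share difference among strong peaks (22.8 points) was 10.9 with a −log10 p of at least 5, 35.7 with 20 and 30.1 for the 10000 strongest peaks, values added after seeing the data, as were 4 on the paired ratio. No paired analysis was possible because each condition had 1 SMARCA4 library. At a median of 14 or 15 summit reads, the ratio of a single weak peak carries wide counting error.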
